A study of Mus musculus with 6 samples.

Results

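Apelin and 9 other genes known as markers of endothelial tip cells were read in endothelial cells sorted from mouse glioma and from normal mouse brain. The genes are Apln, Aplnr, Esm1, Kcne3, Prnd, Prn, Mcam, Lxn, Trp53i11 and Plaur. They were chosen by symbol, with their values in these libraries already known, and all 10 were found among the 24421 symbols of the files. The glioma endothelium came from C57BL/6 mice 3 weeks after GL26l glioma cells were injected into the brain (n = 3 libraries). The normal endothelium was sorted from normal brain of C57BL/6 mice (n = 3 libraries). Age, sex, the sort gate and the number of animals behind a library are not given in the labels. The column headings of glioma replicates 2 and 3 also carry the word control, in full or shortened, and both were grouped as glioma by their sample labels. The RNA sets are described as independent, but not as coming from different animals, so the spread between libraries can be technical.

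Tip cells are the leading cells of a vascular sprout. They extend filopodia, respond to vascular endothelial growth factor and degrade the matrix ahead of them, while the stalk cells behind them proliferate and form the lumen under Notch signalling. Apelin is a secreted peptide made by tip cells, and its G protein-coupled receptor Aplnr is found on venous and sprouting endothelium. In the quiescent vessels of the adult brain, most endothelial cells are in the resting phalanx state and apelin is low.

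Values are log2(x + 1), nearly equal at each rank from the top of a library down to its lowest listed value. Above that point a value gives the place of a gene within its library, below it the libraries differ in what they list, and the sequencing depth is unknown. The labels call the kit Quant-Seq, a method that reads the 3′ end of transcripts, though whether only these ends were read is uncertain. Levels of different genes are set side by side on the 3′ reading. They would depend on transcript length if whole transcripts had been read. All 12 pan-endothelial markers were above 0 in every library, with summed levels of 9825 to 19718 ppm in glioma libraries and 20312 to 28433 ppm in normal libraries, where ppm is the share of the library's summed linear values. The 7 erythroid markers summed to 24379, 5419 and 821 ppm in glioma replicates 1, 2 and 3, against 887, 3331 and 2911 ppm in normal replicates 1, 2 and 3. Genes above 0 numbered 13108, 10954 and 10013 in glioma replicates 1, 2 and 3, and 7446, 11853 and 13072 in normal replicates 1, 2 and 3. The lowest value above 0 was 0.415, 3.82 and 5.22 in the glioma libraries and 7.43, 2.84 and 0.22 in the normal libraries. Normal replicate 1 thus lists no gene between 0 and 7.43, and in it the glycolytic enzyme gene Pgk1, which all cells use, was at 0. Normal replicates 2 and 3 were close to each other (Pearson's r = 0.97 across 5880 genes above 0 in all 6 libraries), while normal replicate 1 correlated with them at 0.58 and 0.60. In such bulk samples, fewer cells of a type and less RNA per cell cannot be told apart.

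Promoter sequences are shown for Apln, for Kcne3, which was even across the glioma libraries, and for Prnd and Prn, which were listed at 0 in all normal libraries. RefSeq windows for 9 of the 10 genes were matched by symbol (build GRCm38.p6, 11 windows since Kcne3 and Prnd have a pair of starts each). The 250 bases before a listed start are printed 5′ to 3′ on the strand of the gene. The printed Kcne3 window ends at 100176669, past the first base of the gene at 100176507. By these positions its marked match lies inside the gene. Capitals mark ACGTG or its reverse complement CACGT, the core of the site to which hypoxia-inducible factors bind. A match is a description of the letters and not a site.
Apln (chrX:48034854-48035103, minus strand): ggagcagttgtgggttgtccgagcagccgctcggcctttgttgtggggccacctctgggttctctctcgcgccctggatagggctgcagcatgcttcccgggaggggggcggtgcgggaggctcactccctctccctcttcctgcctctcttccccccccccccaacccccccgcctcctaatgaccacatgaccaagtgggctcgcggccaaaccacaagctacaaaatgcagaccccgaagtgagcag
Kcne3 (chr7:100176420-100176669, plus strand): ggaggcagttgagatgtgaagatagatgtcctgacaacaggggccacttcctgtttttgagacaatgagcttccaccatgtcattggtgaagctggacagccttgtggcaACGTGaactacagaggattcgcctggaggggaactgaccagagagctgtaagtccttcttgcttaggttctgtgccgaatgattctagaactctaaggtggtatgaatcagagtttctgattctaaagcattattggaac
Prnd (chr2:131950611-131950860, plus strand): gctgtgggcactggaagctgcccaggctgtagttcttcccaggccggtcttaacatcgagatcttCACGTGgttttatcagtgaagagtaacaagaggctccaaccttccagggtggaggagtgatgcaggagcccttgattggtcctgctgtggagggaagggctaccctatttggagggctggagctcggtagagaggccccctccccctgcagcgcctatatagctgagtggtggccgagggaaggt
Prn and Prnp (chr2:131909678-131909927, plus strand): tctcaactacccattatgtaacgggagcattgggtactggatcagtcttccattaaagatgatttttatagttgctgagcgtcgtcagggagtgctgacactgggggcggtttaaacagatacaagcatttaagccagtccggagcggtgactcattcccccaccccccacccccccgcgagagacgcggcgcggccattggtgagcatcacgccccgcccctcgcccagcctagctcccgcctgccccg
The core was found on either strand in 3 of the 11 windows, and in 16.6% of all 32851 windows of this length. The 3 are the printed windows of Kcne3 and Prnd and the window of Lxn. The other window of Kcne3 and the other window of Prnd, not printed, held no match. In Prnd the match is CACGTG, which reads the same on both strands, and the 2 matches overlap. Further cores were searched on both strands. The ETS core CCGGAA was in 1 of the 11 windows and 12% of all, the AP-1 site TGACTCA in 2 and 4.46%, and the GATA site GATAAG in 0 and 6.55%.

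Glioma endothelium had values above 0 for each of the 10 genes in each of its 3 libraries. In the normal libraries 5 genes were above 0 throughout, and Kcne3, Prnd, Prn, Lxn and Plaur were listed at 0 in 1 to 3 of them. The 3 glioma libraries lay above the 3 normal libraries for 5 of the 10 genes, namely Kcne3, Prnd, Prn, Lxn and Plaur, and below them for 0. Over the 11862 genes tested, 6.91% lay wholly higher and 6.37% wholly lower. Since the 10 genes were chosen on this contrast, their counts and differences are given as a description without a test. The limma fit over all 11862 genes called 0 genes (0%) at a Benjamini-Hochberg adjusted p of 0.05, with a smallest adjusted p of 0.875. At an unadjusted p under 0.05 it had 279 higher (2.35%) and 230 lower genes (1.94%), and without the mean trend of the variance prior it called 15 genes.

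**Figure D1:**
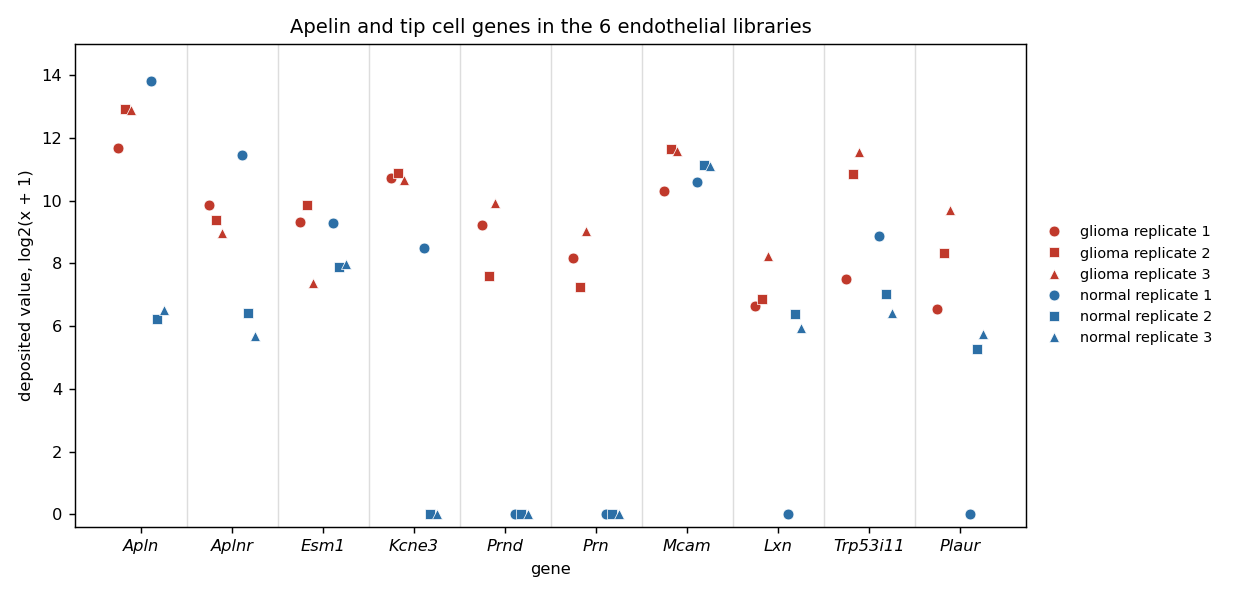
Deposited log2(x + 1) values of the 10 genes (x axis) in 3 glioma (red) and 3 normal libraries (blue), 1 point per library and a marker shape per replicate number. Normal replicate 1 (blue circle) is the highest library for Apln and Aplnr, and values of 0 appear in the normal libraries alone.

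Apln, the ligand (X chromosome, 48025146 to 48034853), was high in all glioma libraries. Its values were 11.69, 12.93 and 12.89 in glioma replicates 1, 2 and 3, against 13.82, 6.21 and 6.52 in normal replicates 1, 2 and 3. As a share this was 195, 460 and 445 in glioma, against 859.5, 4.30 and 5.33 in normal (all in ppm). Normal replicate 1 was thus the highest of all 6 libraries, while normal replicates 2 and 3 lay far below the glioma libraries. By rank, Apln was gene 912, 323 and 339 from the top in the glioma libraries, and 125, 8959 and 8629 in the normal libraries. The mean difference was 3.66 (SE 1.77) on the log2 scale, from 12.50 ± 0.70 in glioma and 8.85 ± 4.30 in normal (SD, n = 3 each). It was 6.14 without normal replicate 1, and 2.34 without normal replicate 2 and 2.49 without normal replicate 3.

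Aplnr, the apelin receptor (chromosome 2, 85136360 to 85139923), had the same layout at a lower level. Its values were 9.87, 9.37 and 8.97 in glioma, against 11.45, 6.41 and 5.70 in normal replicates 1, 2 and 3. Here too normal replicate 1 stood above the glioma libraries and the other normal libraries below them. The mean difference was 1.55 (SE 1.46), from 9.41 ± 0.45 in glioma and 7.85 ± 3.14 in normal (SD, n = 3 each), and it ranged from 0.47 without normal replicate 3 to 3.35 without normal replicate 1. The value of the ligand exceeded that of its receptor by 1.83, 3.56 and 3.91 in glioma replicates 1, 2 and 3 and by 2.36 in normal replicate 1. In normal replicates 2 and 3 that distance was -0.20 and 0.82.

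**Figure D2:**
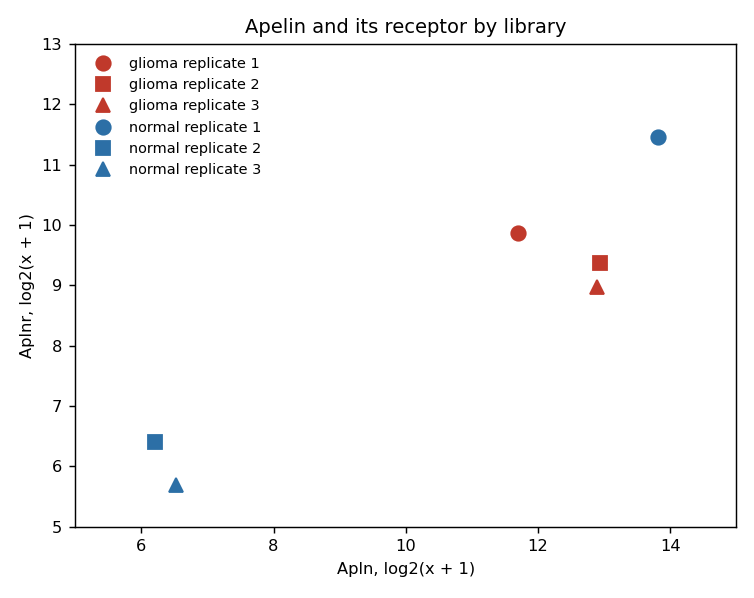
Aplnr (y axis) against Apln (x axis), both as log2(x + 1), with 1 point per library, glioma in red and normal in blue. Normal replicates 2 and 3 sit at the lower left, apart from the others, and normal replicate 1 at the upper right.

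Across the 6 libraries Apln and Aplnr had a Pearson's r of 0.93 and a Spearman's rho of 0.77, and r was 0.51 without the 2 libraries farthest from the Apln median, normal replicates 2 and 3. The libraries fall into separate clusters and share the pair of alike normal libraries, so this r describes their layout. Of 5879 other genes above 0 in all 6 libraries, 179 (3.04%) had an r with Apln above 0.9, and Aplnr was the 95th of them. The genes most like Apln over the 6 libraries were Col4a1, a type IV collagen chain of the basement membrane (r = 0.99), Ints8, an Integrator complex subunit (0.99), D1Ertd622e (0.99), the zinc transporter gene Slc39a11 (0.98) and Ckap4 (0.98). Without normal replicates 2 and 3 these r lay between 0.68 and 0.99. Col4a1 stood at 13.52, 13.90 and 13.75 in glioma, against 13.90, 12.33 and 12.26 in normal. The genes most like Aplnr were Tnfaip2 (0.997), the calcium-binding protein gene S100a6 (0.99), the membrane-bound metalloproteinase gene Mmp14 (0.99), Commd9 (0.99) and the peroxisomal import gene Pex13 (0.98). Mmp14 stood at 11.71, 10.70 and 11.35 in glioma, against 13.40, 7.74 and 7.14 in normal.

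Normal replicate 1 and all glioma libraries lay above normal replicates 2 and 3 for 4 of the 10 genes, Apln, Aplnr, Kcne3 and Trp53i11, and for 8.95% of all tested genes. The 14 proliferation genes had a like layout. Their summed level was 1105, 323 and 417 ppm in glioma, against 509, 37.0 and 34.2 in normal replicates 1, 2 and 3. In glioma 14, 14 and 12 of them were above 0, against 10, 5 and 6 in normal, and Ccnb2, Aurkb and Bub1b were at 0 in all 3 normal libraries. The part of this in the tip cell values was not tested.

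Among the other genes of apelin processing and signalling, 8 of 12 were tested and 0 passed in either direction. Their median difference was -0.01, beside 0.05 over all genes tested, and it was 0.08 with median centring and 0.35 with centring on the endothelial markers, which moves the median of all genes to 0.41. Arrb1, which encodes a beta-arrestin that binds activated receptors, stood at 10.04, 10.90 and 10.07 in glioma, against 9.02, 8.91 and 9.04 in normal. All glioma libraries were above all normal ones, with a difference of 1.35 (SE 0.58, limma adjusted p = 0.875). Gnai1, an inhibitory G protein subunit, was at 7.22, 5.89 and 0 in glioma, against 0, 2.84 and 0 in normal (limma adjusted p = 0.875). Apela, the second ligand of the receptor, was listed above 0 in glioma replicate 1 (5.69) and normal replicate 3 (1.42) alone.

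Esm1 encodes endocan, a proteoglycan that tip cells secrete (chromosome 13, 113209659 to 113218104). It stood at 9.31, 9.88 and 7.38 in glioma, against 9.29, 7.90 and 7.98 in normal. The groups overlapped, and glioma replicate 3 was the lowest of all libraries. The mean difference was 0.47 (SE 0.97), from 8.86 ± 1.31 in glioma and 8.39 ± 0.78 in normal (SD, n = 3 each), and it was -0.042 without glioma replicate 2. It did not share the split between normal replicate 1 and the others to the degree that Apln did, since the normal values spanned 1.39 for Esm1 and 7.60 for Apln.

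Kcne3 encodes a beta subunit of voltage-gated potassium channels (chromosome 7, 100176507 to 100184869). It was even across the glioma libraries, at 10.74, 10.88 and 10.65, while the normal libraries held 8.50, 0 and 0 in replicates 1, 2 and 3. The groups did not overlap, and the lowest glioma library was 2.15 above the highest normal library. Glioma values spanned 0.22, the narrowest span of the 10 genes in that group. Of its relatives and partners, 3 of 10 were tested and 0 passed, with a median difference of -0.93 that was 0.15 with every value below 7.43 raised to it. It was -3.38 without glioma replicate 1, -2.27 without normal replicate 1 and -5.07 without replicate 1 of both groups. The pore-forming partner Kcnq1 stood at 4.17, 8.62 and 9.30 in glioma, against 7.92, 8.76 and 8.21 in normal (limma adjusted p = 0.905). Kcne1l, a further family member on the X chromosome, was at 6.59, 0 and 0 in glioma, against 0, 6.98 and 5.77 in normal (limma adjusted p = 0.892). Kcne1 was listed at 0 in all 6 libraries.

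Prnd encodes doppel, a membrane-anchored relative of the prion protein, and Prn is a readthrough gene that starts at the prion gene Prnp and ends in Prnd. Prnd stood at 9.22, 7.60 and 9.91 in glioma and was listed at 0 in the 3 normal libraries. Prn stood at 8.18, 7.25 and 9.04 in glioma and was likewise listed at 0 in the 3 normal libraries. Normal replicate 1 lists nothing below 7.43, and Prn in glioma replicate 2 lay under that value. With every value below 7.43 raised to it, the Prn groups overlapped (difference 0.79) and the Prnd groups did not (1.48). Prnd exceeded Prn by 1.03, 0.35 and 0.87 in glioma replicates 1, 2 and 3, and both were lowest in glioma replicate 2 and highest in glioma replicate 3. A gene at 0 in the 3 normal and above 0 in the 3 glioma libraries was found 57 times among 11862 (0.481%), and the opposite layout 44 times (0.371%). Both counts depend on the same limit of normal replicate 1. No fold is given against a group at 0.

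The pair is not independent. In the GENCODE M21 annotation (mm10) both end at the same base of chromosome 2, 131956130, on the plus strand, and share their last exon of 3122 bases (131953009 to 131956130). That exon holds 97.2% of the exonic bases of Prnd and 92.6% of those of Prn, and all of the last 300 bases of each. Reads from that exon cannot be told apart between them, with or without strand. Prn shares 145 exonic bases with Prnp, at its start, and none in its last 300 bases. Prnp, the neighbour upstream, stood at 10.99, 13.01 and 12.40 in glioma, against 11.47, 11.50 and 11.74 in normal, a difference of 0.56 (SE 0.57, limma adjusted p = 0.877). Its groups overlapped and it was above 0 in every library. Without glioma replicate 1 the Prnp groups did not overlap (difference 1.13), nor did they with centring on the endothelial markers (0.92), and without glioma replicate 2 the difference was 0.12. Rassf2, a further neighbour, stood at 9.48, 8.60 and 9.09 in glioma, against 9.28, 7.08 and 6.38 in normal (limma adjusted p = 0.875). Of the prion genes and neighbours listed, 3 of 4 were tested and 0 passed, with a median difference of 0.56. It was 1.13 without glioma replicate 1, 0.12 without glioma replicate 2 and -0.0066 without the detection filter.

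**Figure D3:**
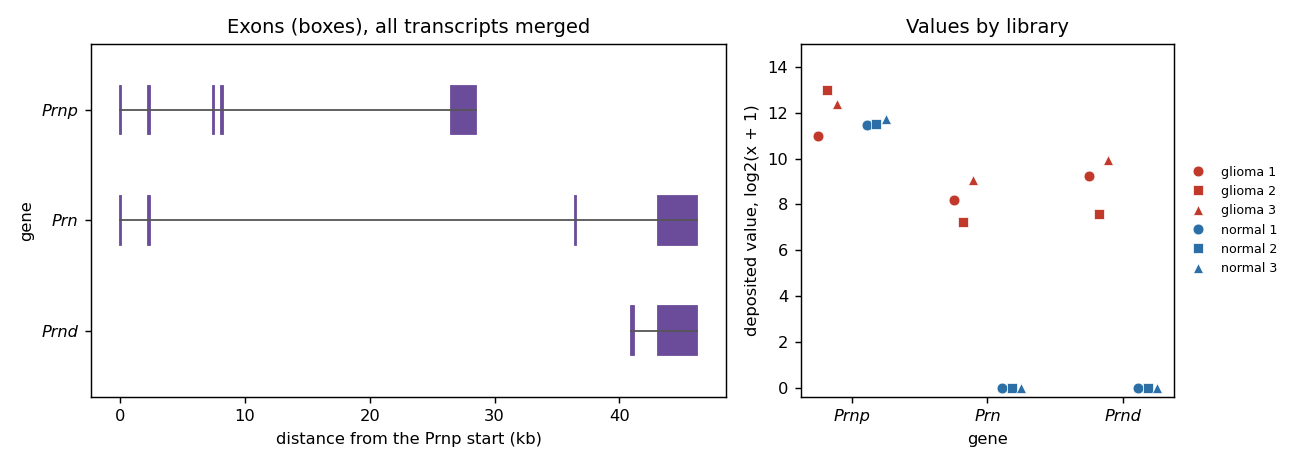
Left, exons of Prnp, Prn and Prnd (boxes, transcripts of a gene merged) by distance in kb from the Prnp start. Right, log2(x + 1) values of the 3 genes, glioma in red and normal in blue, with Prn and Prnd at 0 in the normal libraries and Prnp above 0 in all.

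Mcam, the adhesion molecule CD146 found on endothelium and pericytes (chromosome 9, 44134658 to 44142727), was high everywhere. It stood at 10.31, 11.65 and 11.59 in glioma, against 10.61, 11.13 and 11.10 in normal. The groups overlapped, with glioma replicate 1 the lowest library. The mean difference was 0.24 (SE 0.53), from 11.19 ± 0.76 in glioma and 10.95 ± 0.29 in normal (SD, n = 3 each). It was 0.0043 without glioma replicate 2 and 0.67 without glioma replicate 1. Of the 12 mural cell markers, 9, 11 and 10 were above 0 in glioma and 10, 12 and 12 in normal, with Pdgfrb and Rgs5 above 0 in every library. Their summed level was 601 to 1083 ppm in glioma and 412 to 1259 ppm in normal, and their part in the Mcam values was not tested. Of 10 adhesion genes listed with Mcam all were tested and 0 passed. Their median difference was 0.12 (0.21 and 0.48 with the centrings, beside 0.14 and 0.41 over all genes). It was -0.63 without normal replicate 1, -0.19 without glioma replicate 2 and -0.04 without glioma replicate 3. Lgals1, a galectin, stood at 10.94, 7.86 and 10.30 in glioma, against 11.42, 5.51 and 5.38 in normal (limma adjusted p = 0.875). Msn, the cytoskeletal linker moesin, stood at 11.99, 14.07 and 12.73 in glioma, against 13.41, 13.88 and 13.76 in normal (limma adjusted p = 0.875).

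Plaur encodes the urokinase receptor, which gathers plasminogen activation at the cell surface (chromosome 7, 24460937 to 24475970). It stood at 6.54, 8.32 and 9.70 in glioma, against 0, 5.27 and 5.74 in normal replicates 1, 2 and 3. The groups did not overlap, but the lowest glioma library was 0.80 above the highest normal library. The 0 of normal replicate 1 stands in a library that lists nothing below 7.43. Without that library the difference was 2.68, against 4.52 (SE 2.38) with it. Plaur is also made by myeloid cells. Of 20 microglia and macrophage markers 17, 4 and 15 were above 0 in glioma and 6, 7 and 9 in normal. Their summed level was 78.2, 56.5 and 875 ppm in glioma, against 242, 19.8 and 16.7 in normal. The 9 granulocyte markers summed to 573.5, 1.8 and 4.5 ppm in glioma, against 10.2, 4.6 and 1.2 in normal. They were thus highest in glioma replicate 1, the glioma library with the least Plaur. In glioma replicate 3, the library with the most Plaur, the microglia and macrophage markers Ptprc, Itgam, Trem2, Adgre1 and Ccr2 were at 0. The part of these cells in the Plaur values was not tested.

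Plau, the gene of urokinase, was listed above 0 in glioma replicate 1 alone (8.17), and Plg, Serpinb2 and Fpr2 were at 0 in all 6 libraries. Vtn, the gene of vitronectin, a matrix ligand of the receptor, stood at 9.33, 9.24 and 11.66 in glioma, against 11.07, 10.17 and 9.90 in normal (limma adjusted p = 0.945). Plat, the gene of tissue plasminogen activator, stood at 7.53, 12.17 and 12.65 in glioma, against 10.32, 11.87 and 12.09 in normal (limma adjusted p = 0.925). Both overlapped between the groups. Of 13 genes of plasminogen activation 9 were tested and 0 passed, with a median difference of 0.21, which was -0.25 without normal replicate 2 and -0.22 without normal replicate 3. S100a10, a subunit of a plasminogen-binding complex with annexin A2, stood at 9.97, 8.07 and 9.80 in glioma, against 8.02, 2.84 and 5.66 in normal. Its groups did not overlap (difference 3.77, SE 1.64, limma adjusted p = 0.875), but they did with centring on the endothelial markers, and the difference was 2.44 without normal replicate 2 and 1.65 with the floor at 7.43. Itgb1, an integrin chain that pairs with the receptor, stood at 10.72, 12.27 and 12.33 in glioma, against 10.95, 11.23 and 11.10 in normal (limma adjusted p = 0.875).

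Lxn encodes latexin, an inhibitor of metallocarboxypeptidases (chromosome 3, 67457999 to 67463907). It stood at 6.65, 6.86 and 8.23 in glioma, against 0, 6.40 and 5.93 in normal. The groups did not overlap by a margin of 0.25, and normal replicate 1 was again at 0 where no gene below 7.43 is listed. The difference was 1.09 without that library and 3.14 (SE 2.48) with it. Lxn lies inside Gfm1 on the opposite strand, and 63 of its 1508 exonic bases (4.2%) overlap exons of that gene, none in the last 300. Gfm1, a mitochondrial elongation factor gene, lay between 9.14 and 10.21 in glioma, against 8.40 to 9.73 in normal (limma adjusted p = 0.875). Of the carboxypeptidase and neighbour genes 3 of 9 were tested and 0 passed, with a median difference of 0.22 that was -0.11 without normal replicate 2 and -0.08 without normal replicate 3. Cpd, a carboxypeptidase, stood at 11.94, 12.10 and 10.53 in glioma, against 11.57, 11.91 and 11.88 in normal (limma adjusted p = 0.93).

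Trp53i11 is a gene named for its induction by p53 (chromosome 2, 93187349 to 93201757). It varied most within glioma, at 7.50, 10.84 and 11.56, against 8.88, 7.03 and 6.41 in normal. Glioma replicate 1 was below normal replicate 1, while glioma replicates 2 and 3 were above every normal library. The mean difference was 2.53 (SE 1.23), from 9.97 ± 2.17 in glioma and 7.44 ± 1.28 in normal (SD, n = 3 each), with 1.73 without glioma replicate 3 and 4.48 without replicate 1 of both groups. Of 12 genes of the p53 response 11 were tested and 0 passed. Their median difference was 0.09 (0.18 and 0.45 with the centrings, beside 0.14 and 0.41 over all genes). Cdkn1a, the cell cycle inhibitor p21, stood at 11.31, 12.45 and 13.15 in glioma, against 10.94, 10.77 and 11.09 in normal, with no overlap (difference 1.37, SE 0.55, limma adjusted p = 0.875). Trp53 itself stood at 4.17, 8.95 and 10.96 in glioma, against 0, 7.49 and 7.23 in normal (limma adjusted p = 0.875).

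The size of most differences changed without normal replicate 1 or with a floor on low values. Without normal replicate 1, 8 of the 10 genes lay wholly higher in glioma, all but Esm1 and Mcam, where 14.7% of all tested genes did and 20.7% lay wholly lower. With every value below 7.43 raised to 7.43, a floor shared by all libraries, 2 of the 10 genes lay wholly higher, Kcne3 and Prnd, where 4.14% of all tested genes did and 5.05% lay wholly lower. The difference of Kcne3 was then 2.97, that of Prnd 1.48, of Plaur 1.05, of Prn 0.79 and of Lxn 0.27, while that of Apln was 2.95.

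**Figure D4:**
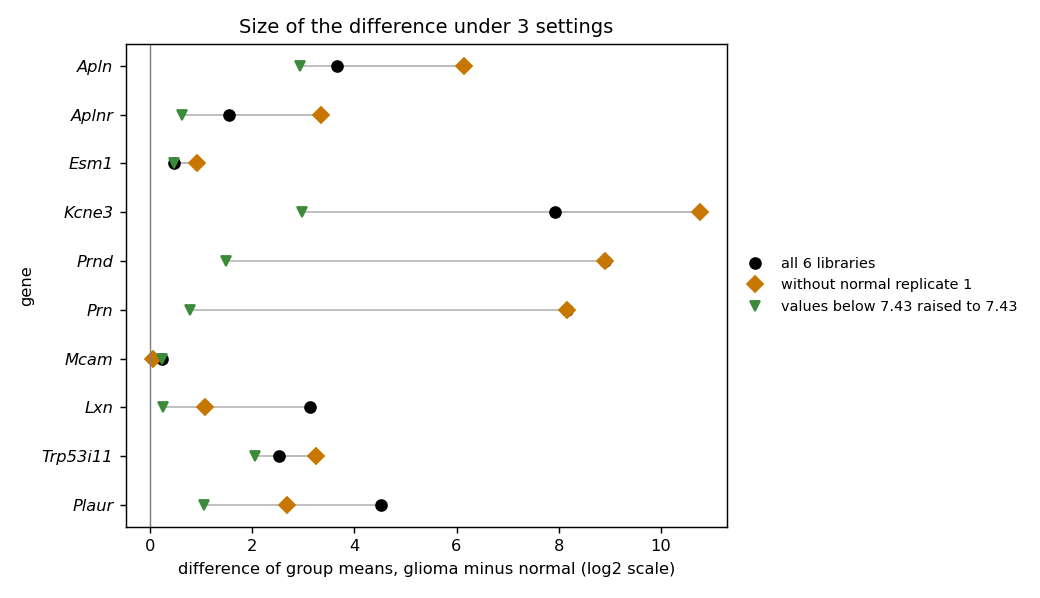
Difference of the group means, glioma minus normal, on the log2 scale (x axis) for each gene (y axis) with all 6 libraries (circle), without normal replicate 1 (diamond) and with a shared floor (triangle). The circle of Prnd and of Prn lies under the diamond, and the floor narrows the difference most for genes listed at 0 in normal libraries.

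Other genes known from tip cells were read from a list of 41, all of them tested. Like the other gene lists, it was chosen with earlier results of these data known. Its counts and median are therefore a description and not independent support. Of these 0 passed in either direction. At an unadjusted limma p under 0.05, 6 were higher and 0 lower, beside 2.35% and 1.94% of all tested genes. Of the 41, 5 had all 3 glioma values over all 3 normal values and 0 had them under, beside 6.91% and 6.37% of all tested genes. With centring on the endothelial markers the count was 9, beside 10% of all genes higher and 3.52% lower. The median difference was 0.46, beside 0.05 over all genes, and it was positive under each of the alternatives tried. Over the 33 genes above 0 in all 6 libraries it was 0.25, beside -0.18 over all such genes. Without normal replicate 1, 17 lay wholly higher and 3 wholly lower, where 14.7% and 20.7% of all tested genes did, with a median of 0.72 beside -0.35 over all genes. Without glioma replicate 1, 13 lay wholly higher and 1 wholly lower, where 15% and 12.1% of all tested genes did, with a median of 1.01 beside 0.10 over all genes.

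The groups did not overlap for Fscn1, Cotl1, Igfbp3 and C1qtnf6. Fscn1, the actin bundler of filopodia, stood at 11.56, 9.63 and 10.38 in glioma, against 9.03, 4.04 and 1.50 in normal (difference 5.66, SE 1.89). Cotl1, an actin-binding protein gene, stood at 11.30, 8.83 and 10.94 in glioma, against 0, 5.46 and 4.58 in normal (difference 7.01, SE 1.95). Glioma replicate 2 was the lowest glioma library for both, and the part of other cell types in these values was not tested. Igfbp3, which encodes a binding protein of insulin-like growth factors, stood at 10.51, 12.94 and 13.75 in glioma, against 9.85, 9.97 and 9.98 in normal (difference 2.47, SE 0.78). C1qtnf6 stood at 9.11, 9.18 and 9.23 in glioma, against 0, 0 and 5.37 in normal (difference 7.38, SE 2.41). The limma adjusted p was 0.875 for each of these 4, and with the floor at 7.43 the differences of Fscn1, Cotl1 and C1qtnf6 were 2.56, 2.93 and 1.75. Dll4 and Pdgfb, picked after their values were seen as well-known tip cell ligands, overlapped between the groups. Dll4 stood at 10.13, 10.51 and 9.44 in glioma, against 10.97, 8.66 and 9.06 in normal, and Pdgfb at 11.88, 13.52 and 10.30 in glioma, against 13.15, 12.36 and 13.06 in normal.

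**Figure D5:**
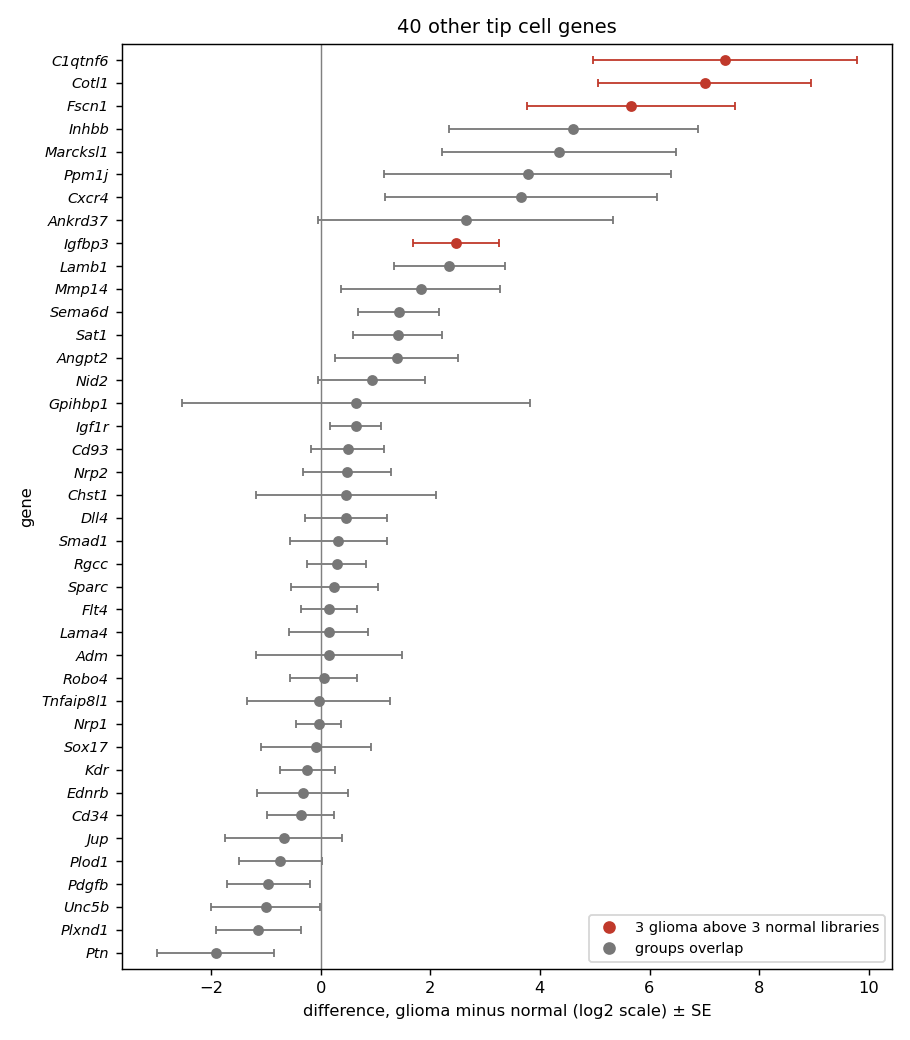
Difference, glioma minus normal, on the log2 scale (x axis) with its limma SE for 40 other tip cell genes (y axis, sorted by difference), red where the 3 glioma libraries all lie above the 3 normal libraries. The 4 red genes have differences from 2.47 to 7.38, and the lowest gene is Ptn at -1.92.

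Stalk cell and Notch genes, the counterpart of the tip cell state, had 10 of 11 members tested and 0 passing in either direction. Their median difference was -0.10, beside 0.05 over all genes. With centring on the endothelial markers it was 0.26, beside 0.41 over all genes. Jag1, a Notch ligand of stalk cells, stood at 9.78, 10.59 and 10.47 in glioma, against 8.85, 9.72 and 9.76 in normal, with no overlap (difference 0.83, SE 0.59, limma adjusted p = 0.875, and 0.54 without normal replicate 1). Lfng, which modifies Notch receptors, stood at 11.25, 9.05 and 8.39 in glioma, against 11.69, 10.11 and 10.10 in normal (limma adjusted p = 0.875). Of 15 hypoxia response genes 13 were tested, 0 passed, and 2 lay wholly higher and 0 wholly lower. Over all tested genes 6.91% lay wholly higher and 6.37% wholly lower. The hypoxia median was 0.50, beside 0.05 over all genes. Pgk1 stood at 8.35, 8.45 and 9.32 in glioma, against 0, 7.75 and 7.52 in normal, and the lactate dehydrogenase gene Ldha at 11.82, 11.84 and 13.19 in glioma, against 10.47, 11.97 and 12.08 in normal (limma adjusted p = 0.875 for both). Of 14 proliferation genes 13 were tested, 0 passed, and 5 lay wholly higher and 0 wholly lower, beside the same 6.91% and 6.37%. Their median was 4.92, beside 0.05 over all genes, and it was 1.02 with the shared floor. Bub1b, a spindle checkpoint kinase, stood at 7.76, 8.52 and 5.22 in glioma, and Ccnb2, a mitotic cyclin, at 8.33, 4.78 and 8.51 in glioma, both listed at 0 in the normal libraries (limma adjusted p = 0.875 for both). With the shared floor both overlapped between the groups (differences 0.475 and 0.661). The 5.22 of Bub1b is the lowest value listed in glioma replicate 3. All 10 dissociation stress genes were tested and 0 passed, with a median of 0.51 that was -0.07 without glioma replicate 3. Egr1 stood at 12.90, 11.10 and 12.89 in glioma, against 9.09, 11.87 and 12.27 in normal, and Atf3 at 9.69, 8.38 and 10.71 in glioma, against 8.36, 9.13 and 8.86 in normal (limma adjusted p = 0.875 for both).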

How the data were processed

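Per the labels' protocols, total RNA of sorted endothelial cells went into libraries of a kit called Quant-Seq. Bowtie2, edgeR and the build mm10 are named without a role, per the submitters' processing notes; the counter, its strand setting, the annotation and the normalization were not given in the sources used here. The deposited log2 values were read as log2(x + 1) of values that the authors quantile-normalized, since every library has the same highest value, 20.85, and the back-transformed values are multiples of 1 divided by 6 within a tolerance of 0.02. Depth is unknown, so no counting interval is given.

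The linear values had to reach 1 in 3 or more libraries, which left 11862 genes. These went into limma 3.58.1 (R 4.3.3) with group as the only term, a mean trend and 4 residual degrees of freedom, and Benjamini-Hochberg adjustment over all 11862 genes at 0.05. Members and lists were chosen with earlier results of these data known. Named genes are the 10 members, the 2 members of each list with the smallest p, tip cell genes without overlap, the 5 genes most like Apln and Aplnr by Pearson's r, and Prnp. Other genes named in passing (Apela, Plau, Plat, Vtn, Plg, Serpinb2, Fpr2, Kcne1, Aurkb, Dll4, Pdgfb, Ptn and single markers) were chosen after their values were seen. Of the tip cell genes, 1 is counted in its list but not reported here.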

Additional observations from a re-analysis of the deposited data

How the results depend on the processing

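A date-like number in the column headings joins glioma replicates 2 and 3, another joins normal replicates 2 and 3, and none occurs in both groups, so what they stand for and the group cannot be told apart. Same-numbered libraries deviated together at r = 0.13, 0.03 and 0.06 over 11862 genes, so the numbers were not taken to pair the libraries. With the replicate block limma called 0 genes, as without it, and 610 genes had an unadjusted p under 0.05 against 509.

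The count of genes past the adjusted threshold was 0 in all settings but limma without the trend, which called 15 genes (10 higher and 5 lower, adjusted p = 0.0475); 13 of them were at 0 throughout 1 group. The members wholly higher in glioma numbered 5 in the main setting and 2 with the shared floor. With endothelial centring they numbered 6, where 10% of all tested genes lay higher and 3.52% lower. Each of the 5 of the main setting holds a 0 in a normal library, so the limit to genes above 0 in all 6 libraries removes them. Of the 5 members that remain there, 0 lay wholly higher, beside 5.05% of all such genes higher and 8.62% lower. With libraries left out the members wholly higher numbered 5 to 9, with 8 without normal replicate 1 and 9 without replicate 1 of both groups. Over all tested genes these settings gave 14.7% higher and 20.7% lower without normal replicate 1, and 24.6% higher and 30.9% lower without replicate 1 of both groups. The members wholly lower numbered 0 throughout. The other tip cell genes wholly higher numbered 5, and 2 among genes above 0 in all 6 libraries, 9 with endothelial centring and 6 to 27 with libraries left out (13 without glioma replicate 1, 17 without normal replicate 1), and those wholly lower numbered 0 to 4 with libraries left out. The 27 and the 4 belong to the setting without replicate 1 of both groups. Over all tested genes 15% were higher and 12.1% lower without glioma replicate 1, and 10% and 3.52% with endothelial centring. Of all genes above 0 in all 6 libraries, 5.05% were higher and 8.62% lower. The median of the other tip cell genes, 0.46, lay between 0.22 and 1.63 with libraries left out and was 1.01 without glioma replicate 1. Leaving out 1 library at a time gave medians of -0.11 to 0.31 for apelin signalling, -0.63 to 0.68 for the adhesion genes, 0.08 to 0.38 for the p53 response, 0.32 to 0.73 for hypoxia and 3.36 to 7.17 for proliferation. The difference of Esm1 was 0.47 and turned to -0.042 without glioma replicate 2, with 1.21 without glioma replicate 3 as the highest. With pseudocount 32 the differences of Prnd and Prn were 4.02 and 3.32. Averaging normal replicates 2 and 3 as 1 sample, an alternative chosen after seeing the data, gave 2.41 for Apln and 0.65 for Aplnr. The cause of these changes was not tested in any setting.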
